A study of Mus musculus with 30 samples.

Results

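Integrins and the core proteins of focal adhesions were examined in RNA from cultured mouse adipose-derived stem cells. The genes were chosen by symbol: every gene named Itga or Itgb with a number, Itgav, Itgae, Itgal, Itgam, Itgax, Itga2b, and 10 adaptor and kinase genes of focal adhesions (Tln1, Tln2, Vcl, Pxn, Ptk2, Ilk, Zyx, Parva, Fermt2 and Lims1). Integrin-binding proteins such as Itgb1bp1, and the gene Itgbl1, were left out. The rule found 35 genes among 38561 in the count table, of which 17 encode integrin alpha chains, 8 beta chains and 10 core proteins. The donors were 30 male C57BL6/J mice of a commercial diet-induced obesity colony, kept 4 to 5 to a cage. Lean mice were fed control chow, and obese mice a lard-based diet with 60% of its energy from fat, begun at weaning. Young mice were killed at 20 weeks of age and aged mice at 52 weeks. Each mouse gave 1 library: 8 libraries from young lean mice, 8 from young obese, 8 from aged lean and 6 from aged obese mice. All cells came from inguinal fat, were positive for Sca-1 and CD34 and negative for CD31, CD45 and Ter119, and had been expanded to passage 2. Of 12 mice bought per group, 8 aged obese mice were alive near the end. Aged obese mice had also eaten the fat-rich diet for longer, so age and time on diet cannot be told apart in obese mice.

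Integrins are receptors made of 1 alpha and 1 beta chain that span the cell membrane and bind matrix proteins such as fibronectin, collagens, laminins and vitronectin. Inside the cell, talin and kindlin bind the beta chain and switch the receptor to its active state, vinculin ties talin to actin, and the complex of Ilk, Lims1 and Parva joins the beta chain to actin by another route. Focal adhesion kinase (Ptk2), paxillin (Pxn) and zyxin (Zyx) then pass on signals of matrix contact and tension, and in fat the stromal progenitors use these contacts to spread, migrate and sense a stiffening matrix.

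The 30 libraries held 30597765 to 47970233 counts in genes. Among 12 markers of adipose stem cells and fibroblasts, Thy1 (679 to 1077 CPM, counts scaled to a common library size), Ly6a, which encodes Sca-1 (176 to 1254 CPM), and Pdgfra (108 to 497 CPM) were detected in every library. Cd34, a sort marker, had a median of only 7.35 CPM, Dcn 11.2 CPM and Lum 0.186 CPM in these cultured cells. The leukocyte marker Ptprc was at 0 in 26 libraries and no library exceeded 0.029 CPM, and the endothelial marker Pecam1 did not exceed 0.278 CPM. Other genes of those lists were present in every library: Csf1r at 8.22 to 30.7 CPM, Cd53 at 2.41 to 33.2 CPM, Cd68 at 1.68 to 7.14 CPM and the endothelial Tek at 0.642 to 16.2 CPM. Libraries of a group were not equally spaced: the chi-square statistic per gene between 2 libraries ran from 4.91 for young obese 19 and 21 to 349 for aged obese 10 and 17, and was 6.37 for young obese 1 and 2. The pairs among young obese 18, 19, 20, 21 and 23 had 4.91 to 16.3, and each of these 5 had 91.6 or more with young obese 1, 2 and 22, so 7 of the 8 young obese libraries fell into a close pair and a close set of 5. In the lean groups the closest pairs were aged lean 19 and 20, at 13.1, and young lean 24 and 25, at 15.6. No pair agreed within sampling noise, but the tests treat all libraries of a group as independent, which the close ones may not be.

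Per length of transcript, the fibronectin receptor pair stood at the top of the set. Itgb1 (ENSMUSG00000025809), the beta chain shared by most matrix-binding integrins, had the highest mean level per length of all 35 genes, 351 CPM per kilobase of exons. Itga5 (ENSMUSG00000000555), which joins Itgb1 to form the main fibronectin receptor, followed at 220 CPM per kilobase, ahead of Zyx, a tension-sensitive adaptor of mature adhesions, at 143. Itgb5, a partner of Itgav in a vitronectin receptor, stood at 98.6 and Itga11, the alpha chain of a fibroblast collagen receptor, at 62 CPM per kilobase. Tln1, which links beta chains to actin, reached 55.4 CPM per kilobase. These values rest on exon lengths from a reference annotation, so they rank genes roughly.

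**Figure D1:**
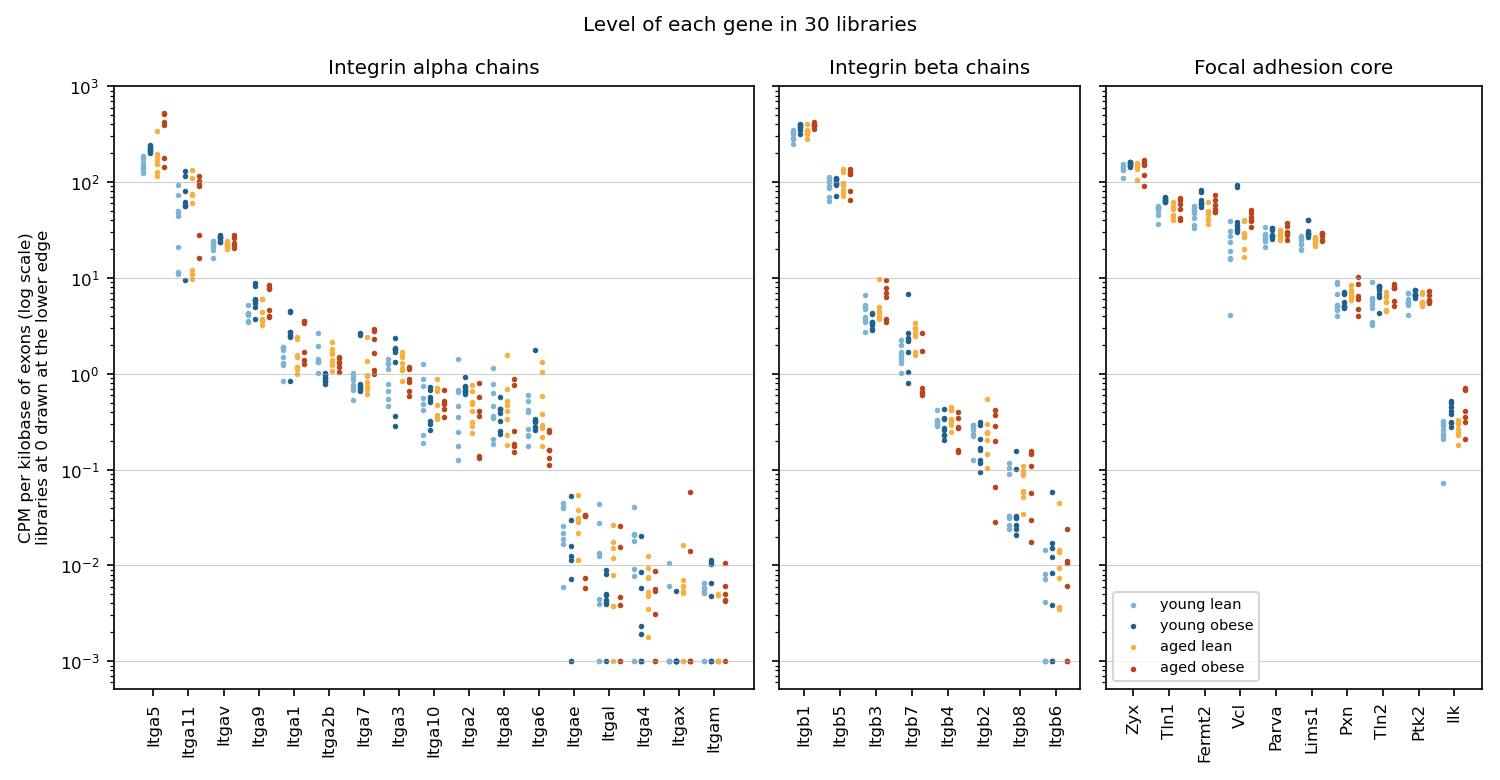
Level of the 35 genes in each of 30 libraries, as CPM per kilobase of exons on a log scale, by chain type and ordered by mean level. Points are libraries coloured by group, and libraries at 0 are drawn at the lower edge. Itgb1 and Itga5 lie highest among the chains, and 6 genes (Itga4, Itgae, Itgal, Itgam, Itgax and Itgb6) lie near the lower edge.

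Among the alpha chains, Itga5 made up most of the summed level per kilobase, with a median share at 20 weeks of 67% in lean and 68.3% in obese mice. At 52 weeks its median share was 65.3% in lean and 73.3% in obese mice. The share of Itga11 ran from 2.78% in an aged obese library to 41.4% in an aged lean one. Its level ran from 48.7 to 691 CPM over all libraries, a range of 14.2 times, and varied widely inside each group. It ran from 56.3 to 482 CPM in young lean (median 237) and from 48.7 to 670 in young obese libraries (median 309). At 52 weeks it ran from 49.5 to 691 CPM in lean (median 345) and from 82.1 to 601 in obese libraries (median 477). The groups overlapped almost completely, and Itga11 was not called in any comparison, with log2 fold changes of 0.08 to 0.77 that were all less than 2 standard errors from 0. With libraries ordered by Itga11, the widest gap by ratio lay between 145 and 226 CPM, with 9 libraries below it and 21 above. Libraries on both sides of that gap occurred in all 4 groups. Itgav, which pairs with several beta chains and activates latent TGF-beta, contributed 3.63% to 13.2% of the alpha chains. Itga9, a receptor for tenascin, and Itga1, a collagen receptor, contributed at most 2.87% and 1.19%.

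**Figure D2:**
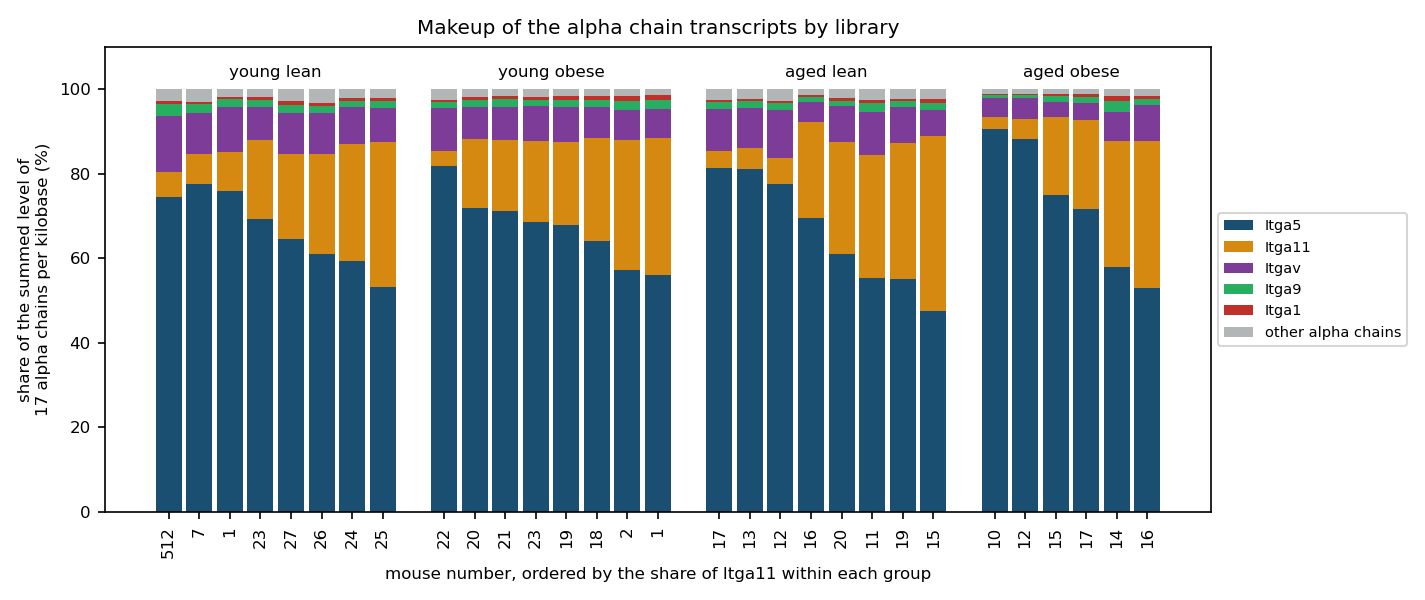
Share of each alpha chain in the summed level per kilobase of all 17 alpha chains, for each library, with mouse numbers on the horizontal axis ordered by the share of Itga11 within a group. Itga5 takes 47.5% to 90.7% of the bar, and Itga11 takes 2.78% to 41.4%.

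Among the beta chains, Itgb1 held 70.7% to 84.8% of the summed level per kilobase and Itgb5 13.6% to 27.5%. Itgb5 was measured at 223 to 399 CPM in young lean (median 340), 255 to 392 in young obese (median 362), 257 to 491 in aged lean (median 334) and 229 to 487 in aged obese libraries (median 432). These ranges overlapped, and Itgb5 was called in no comparison. Itgb3, which pairs with Itgav in a vitronectin receptor, held at most 1.76%. Zyx was called in no comparison either. It lay at 594 to 824 CPM in young lean (median 755), 778 to 883 in young obese (median 835), 567 to 850 in aged lean (median 778) and 488 to 917 in aged obese libraries (median 817). Its log2 fold changes lay between -0.14 and 0.17 and none passed the test.

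The leukocyte alpha chains had few reads. Itga4 and the chains Itgae, Itgal, Itgam and Itgax, which mark lymphoid and myeloid cells, had no more than 19 reads in any library, and the epithelial chain Itgb6 no more than 16. These 6 genes did not pass the filter on low counts, so 29 of the 35 were tested. In the reference annotation 68.7% of the exon bases of Itgam are shared with Gm49368 on the same strand, so its low count is uncertain. The leukocyte beta chains Itgb2 and Itgb7 were tested. Itgb2 lay between 0.0856 and 1.67 CPM. Itgb7 lay between 1.68 and 19 CPM, with 64 to 738 reads per library.

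Obesity in young mice gave the most calls among these genes. Of 29 tested genes, 8 rose and 1 fell in young obese against young lean cells, at an adjusted p under 0.05 in the edgeR fit of all 14438 tested genes (the rule for a called gene). Over all tested genes 8.83% were called, 3.46% as higher and 5.37% as lower. The median log2 fold change of the 29 genes was 0.38, against -0.02 over all tested genes, and was 0.24 without young obese 1 and 2 and 0.19 in limma voom with quality weights. By role, 4 of 10 core genes and 3 of 12 tested alpha chains rose, 1 of 7 tested beta chains rose, and the alpha chain Itga2b fell. In bulk RNA, fewer cells of a type and less RNA per cell cannot be told apart.

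The 4 core genes that rose were Vcl, Fermt2, Lims1 and Tln1. Vcl (ENSMUSG00000021823), which encodes vinculin, was measured at 34 to 319 CPM in young lean libraries (median 177) and at 246 to 773 CPM in young obese ones (median 288). Young obese 1 and 2, at 773 and 726 CPM, stood above all other libraries, the remaining young obese libraries reached 316 CPM, and the groups overlapped. Vcl rose by 1.12 ± 0.30 (log2 fold change ± SE, adjusted p = 0.027). Fermt2, the kindlin of mesenchymal cells, ran from 171 to 291 CPM in young lean (median 255) and from 285 to 434 in young obese libraries (median 315). All but 1 of the young obese libraries lay above the highest young lean one, and Fermt2 rose by 0.50 ± 0.12 (adjusted p = 0.0201). Lims1, the PINCH adaptor that binds Ilk, ran from 95.4 to 133 CPM in young lean (median 117) and from 131 to 198 in young obese libraries (median 143). It rose by 0.42 ± 0.09 (adjusted p = 0.0123), with 7 of 8 young obese libraries above every young lean one. Tln1 ran from 354 to 551 CPM in young lean (median 523) and from 603 to 686 in young obese libraries (median 638). The groups did not overlap, and Tln1 rose by 0.38 ± 0.11 (adjusted p = 0.0305). Of the other 6 core genes, Ilk (0.72 ± 0.24, adjusted p = 0.0559) and Ptk2 (0.23 ± 0.09, adjusted p = 0.0863) came nearest to the threshold, and Pxn, Tln2, Zyx and Parva had adjusted p-values further above it.

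The promoters of 3 of the genes that rose are printed because they hold the letters of motifs searched here. They are the 250 bases before the RefSeq gene start (GRCm38.p6), 5′ to 3′ along the gene, with matches in capitals. A RefSeq promoter was found for 24 of the 35 genes, 29 promoters in all. The CArG box, bound by serum response factor, was found in Vcl, Fermt2 and Itgb6. That is 3 of these 29 promoters (10.3%), against 1.47% of 32851 promoters of all genes, a small number for such a contrast. Itgb6 was not tested for low counts, and another promoter of Itgb6 has no match. The CArG box begins 227 bases before the start in Vcl and 204 in Fermt2. The TEAD site GGAATG, searched on both strands, was found in Vcl, Itgb1 and Itga10, also 10.3% against 12.6% of all promoters, and the AP-1 site TGANTCA in Zyx and Itgax, 6.9% against 6.75%. Neither of these 2 motifs overlaps the CArG box matches. The promoters of the other genes that rose, Lims1, Tln1, Itgav, Itga1 and Itga9, hold none of the motifs searched. A match is a description of the letters, and binding was not measured.
Vcl, chr14:20929148-20929397, plus strand, CArG box and TEAD site in capitals: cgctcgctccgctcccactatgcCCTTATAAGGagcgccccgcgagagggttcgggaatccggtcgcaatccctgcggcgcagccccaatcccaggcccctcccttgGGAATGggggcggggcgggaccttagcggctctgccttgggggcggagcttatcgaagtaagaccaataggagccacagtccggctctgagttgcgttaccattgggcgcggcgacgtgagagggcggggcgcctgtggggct
Fermt2, chr14:45530066-45530315, minus strand, CArG box in capitals: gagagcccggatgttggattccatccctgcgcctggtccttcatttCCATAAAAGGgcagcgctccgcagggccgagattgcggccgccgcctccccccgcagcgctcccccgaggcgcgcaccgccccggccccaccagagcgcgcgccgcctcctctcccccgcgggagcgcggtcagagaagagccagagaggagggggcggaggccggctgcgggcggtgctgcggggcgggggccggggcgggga
Itgb1, chr8:128685404-128685653, plus strand, TEAD site in capitals: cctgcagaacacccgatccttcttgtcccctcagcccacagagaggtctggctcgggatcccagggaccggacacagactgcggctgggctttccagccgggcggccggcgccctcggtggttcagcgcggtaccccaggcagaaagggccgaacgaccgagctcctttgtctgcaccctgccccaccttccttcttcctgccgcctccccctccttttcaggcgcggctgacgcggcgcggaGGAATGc

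Among the integrin chains, Itgb1 was measured at 1014 to 1444 CPM in young lean (median 1318) and at 1296 to 1649 CPM in young obese libraries (median 1540). It rose by 0.26 ± 0.08 (adjusted p = 0.0347), with 6 of 8 young obese libraries above every young lean one. Itgav ran from 175 to 261 CPM in young lean (median 236) and from 255 to 298 in young obese libraries (median 284), with the same log2 fold change of 0.26 ± 0.08 (adjusted p = 0.0366). The groups overlapped by 2 young obese libraries. Itga1, a receptor for collagen, ran from 15.8 to 35.6 CPM in young lean (median 30.4) and from 15.7 to 84.2 in young obese libraries (median 48.8). It rose by 0.88 ± 0.27 (adjusted p = 0.0422), although young obese 22 held the lowest value of both groups. Itga9 ran from 26.7 to 40.5 CPM in young lean (median 32.3) and from 28.6 to 68.8 in young obese libraries (median 45.7). It rose by 0.56 ± 0.18 (adjusted p = 0.0454), and 6 of 8 young obese libraries lay above every young lean one.

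Itga2b, known as the platelet chain of the fibrinogen receptor, was the only one of these genes that fell with obesity in young mice. It ran from 5.55 to 14.6 CPM in young lean (median 7.42) and from 4.31 to 5.55 CPM in young obese libraries (median 4.95). The groups met at 5.55 CPM without overlapping, and the log2 fold change was -0.78 ± 0.16 (adjusted p = 0.0122), the smallest p among these genes. The platelet markers Gp9 and Pf4 were at 0 in 29 and 14 libraries and did not exceed 0.0287 and 0.129 CPM. Ppbp, also a platelet marker, was detected in every library, at 0.0217 to 0.522 CPM. Of the erythroid and platelet list 1 gene was tested, with a log2 fold change of -0.66 in this comparison, and it was not called. The part of these markers was not tested. Itga5 had no overlap between these groups either, at 611 to 917 CPM in young lean (median 710) and 989 to 1201 CPM in young obese libraries (median 1081), but its log2 fold change of 0.57 ± 0.21 missed the threshold (adjusted p = 0.0819).

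**Figure D3:**
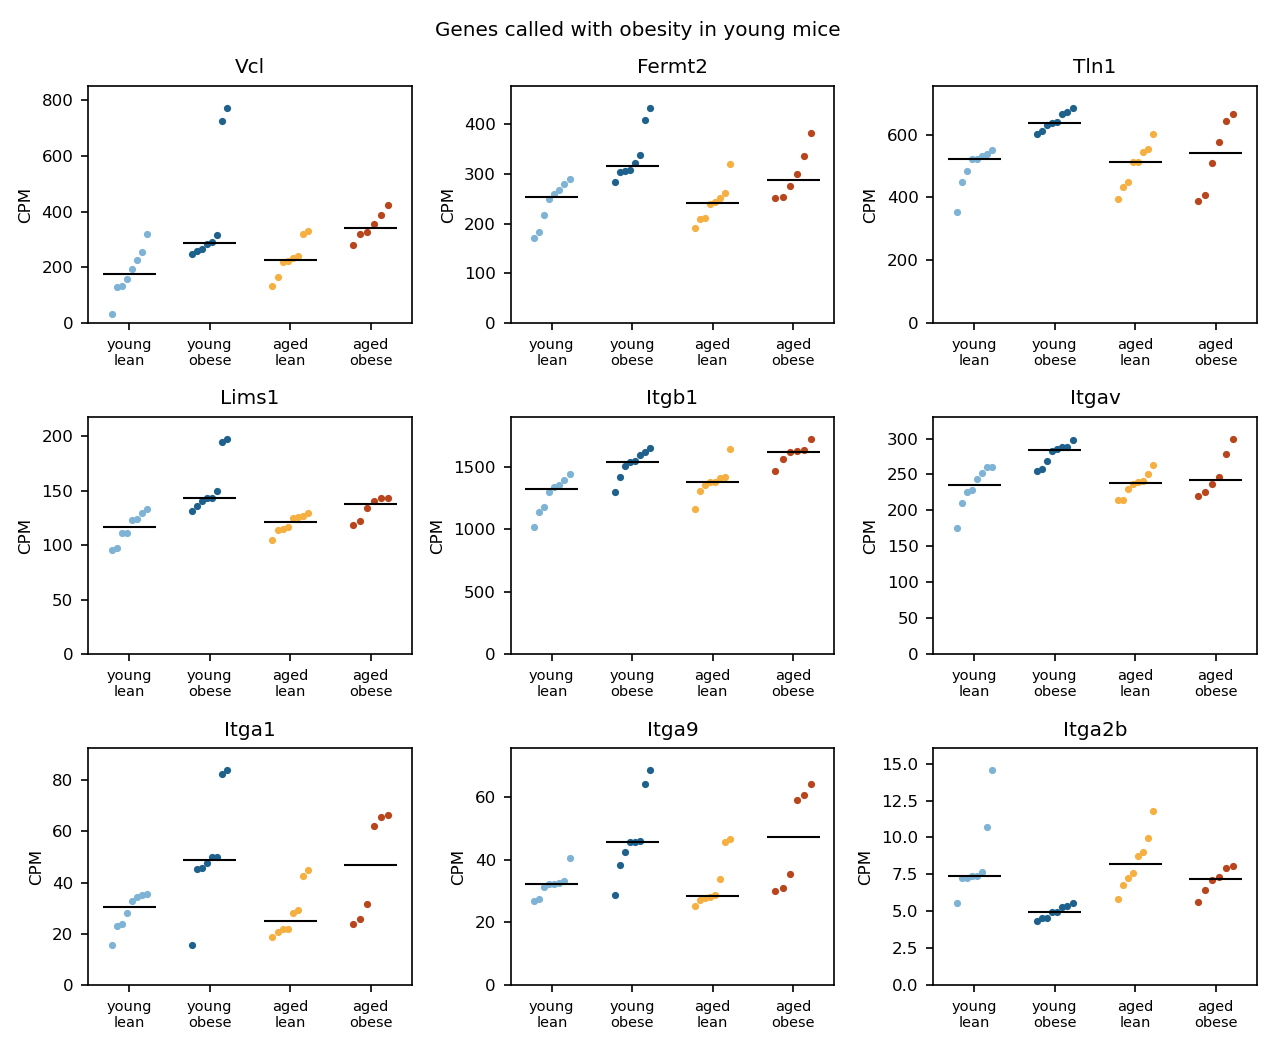
CPM of the 9 genes called with obesity in young mice, by group, with each point a library and the bar the group median. Tln1 and Itga2b do not overlap between young lean and young obese cells, and for Vcl, Fermt2, Lims1 and Itga1 the 2 highest points are young obese 1 and 2.

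The count of 9 depended on a few libraries. Without young obese 1 and 2, Itga2b alone remained called (log2 fold change -0.78, adjusted p = 0.0433) and Itga3, a laminin receptor chain, was added. Vcl then stood at 0.61 ± 0.27 (adjusted p = 0.172), Itga1 at 0.57 ± 0.27, Itga9 at 0.36 ± 0.18, Lims1 at 0.28 ± 0.08 (adjusted p = 0.0558) and Tln1 at 0.39 ± 0.12 (adjusted p = 0.0713). Without young lean 26, where Vcl was lowest, 2 genes remained called, Itga2b and Lims1. Leaving out young lean 27, young lean 7 or young obese 1 kept 3 calls each and young obese 2 kept 4, and Itga2b and Lims1 were among them each time. Young obese 1 and 2 also had the lowest summed level of 9 proliferation markers in their group, 197 and 186 CPM against 641 to 1090 in the other young obese and 342 to 687 in the young lean libraries. Over the whole groups, all 9 proliferation markers had positive log2 fold changes with obesity in young mice, with a median of 0.4. None of the 9 was called, and 0 had an unadjusted p under 0.05. The summed level of 13 mural markers was 7635 to 9855 CPM in young obese and 4513 to 9918 CPM in young lean libraries. Of 11 tested mural markers, 8 had positive and 3 negative log2 fold changes (median 0.19), with 3 at an unadjusted p under 0.05 and none called. The summed level of 8 adipocyte markers was 36.1 to 86.1 CPM in young obese and 37.6 to 133 CPM in young lean libraries. All 5 tested adipocyte markers had negative log2 fold changes, with a median of -2.46, and none was called, with 3 at an unadjusted p under 0.05. The part of these markers in the result was not tested.

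Transcript length moved with the groups as well. The slope of a library's log2 level on the log2 of exon length was lowest in young lean 26 (-0.2) and highest in young obese 1 and 2 (0.14 each), and its median was -0.04 over young lean and 0.03 over young obese libraries. With an offset for length and GC content, Itga2b, Lims1, Fermt2 and Vcl remained called, Vcl at 1.02 ± 0.27. Tln1 (0.26 ± 0.11, adjusted p = 0.155), Itgav (0.11 ± 0.08, adjusted p = 0.386), Itga1 (0.61 ± 0.26, adjusted p = 0.151), Itga9 (0.44 ± 0.15, adjusted p = 0.0885) and Itgb1 (0.28 ± 0.08, adjusted p = 0.055) did not. Of the exon bases of Vcl, 25.5% are shared with Ap3m1 on the opposite strand in the reference annotation, and the strand setting of the counting was not given.

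Obesity in aged mice changed 1 of the 29 tested genes, Itga5, against 0.222% of all tested genes called. Itga5 ran from 574 to 1678 CPM in aged lean libraries (median 796) and from 712 to 2573 CPM in aged obese ones (median 2024). The aged obese libraries split widely: mice 10, 12, 15 and 17 had 2573, 2548, 2087 and 1961 CPM, above every aged lean library, and mice 14 and 16 had 872 and 712 CPM, inside the aged lean range. The log2 fold change was 1.01 ± 0.23, just past the threshold (adjusted p = 0.04997). Itga5 was still called without aged lean 16, aged obese 14, aged obese 16 or young obese 22, each left out alone, and missed the threshold in the 26 fits without any other 1 library. Without aged obese 10 and 12 it stood at 0.66 ± 0.23 (adjusted p = 0.176). The 4 high mice did not share a level of the 9 proliferation markers, whose sum was 1148 and 847 CPM in aged obese 10 and 12, 203 and 145 in 15 and 17, and 314 and 355 in 14 and 16. The median log2 fold change over the 29 genes was 0.13, against 0.01 over all tested genes. With total counts as library size it was 0.01, against -0.1 over all tested genes. All 11 tested mural markers were positive in this comparison, with a median of 0.61 and 6 at an unadjusted p under 0.05, and 11 of 12 stem and fibroblast markers were positive, with a median of 0.33. None of either list was called, and the part of these markers was not tested.

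Age in lean mice called none of the 29 genes, and edgeR called none of all 14438 genes (0%). At an unadjusted p under 0.05 there was 1 of the 29 and 773 of all genes, and DESeq2 and limma voom also called none of the 29. The gene with the smallest p was Itgb7, a leukocyte beta chain that pairs with Itga4 and Itgae, at 2.83 to 6.25 CPM in young lean (median 4.3) and 4.33 to 9.42 CPM in aged lean libraries (median 7.72). Its log2 fold change was 0.70 ± 0.34 (adjusted p = 0.85), and the groups overlapped. The highest value of Itgb7 in the series was 19 CPM, in young obese 22, and aged obese 10, 12, 14 and 15 lay between 1.68 and 1.97 CPM.

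Age in obese mice raised 1 of the 29 genes, Itgb3, against 3.07% of all tested genes called (1.87% as higher and 1.2% as lower). Itgb3 ran from 16.8 to 25.4 CPM in young obese libraries (median 20.1) and from 20.4 to 55.5 CPM in aged obese ones (median 39.1). Aged obese 10, 12, 15 and 17 lay above every young obese library, and aged obese 14 and 16, at 20.4 and 22.1 CPM, lay among them. Itgb3 rose by 0.85 ± 0.22 (adjusted p = 0.0315). The same 4 mice were those with high Itga5, for which the age comparison in obese mice gave 0.72 ± 0.23 (adjusted p = 0.0725). Itgb3 was at 16.2 to 38.9 CPM in young lean (median 25.7) and 22.1 to 56.9 CPM in aged lean libraries (median 25.9). Itga2b did not overlap between young and aged obese cells (highest young obese 5.55, lowest aged obese 5.63 CPM), with a log2 fold change of 0.52 ± 0.17 (adjusted p = 0.0765). No gene of the set was called without aged obese 15, aged obese 17 or young obese 18, 19, 20 or 21, each left out alone. Leaving out aged lean 16, aged obese 10, aged obese 14 or young lean 26 gave 2 calls, and leaving out aged obese 16 gave 3. Of 12 stem and fibroblast markers 2 rose and of 11 tested mural markers 1 rose in the same comparison. The 5 tested adipocyte markers were all positive (median 1.30) with none called. The part of these markers was not tested.

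Aged obese cells differed from young lean cells, a comparison in which age and diet both differ, in 4 of the 29 genes, all higher. Over all tested genes 10.3% were called, 5.62% as higher and 4.65% as lower. This comparison shares its libraries with the 2 obesity comparisons and the 2 age comparisons, so its values stand beside theirs and do not add separate support. Itga5 rose by 1.28 ± 0.23 (adjusted p = 0.0036), with 4 of 6 aged obese libraries above the young lean maximum of 917 CPM. Itgb1, its partner, ran from 1469 to 1725 CPM in aged obese libraries (median 1621), above all young lean values, and rose by 0.34 ± 0.08 (adjusted p = 0.0124). Of 12 stem and fibroblast markers 2 rose in this comparison, and of 11 tested mural markers 2 rose, with a sum over all 13 of 6257 to 12471 CPM in aged obese libraries, highest in aged obese 10, and their part was not tested.

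Itga7, a laminin receptor chain best known from muscle, ran from 4.27 to 8.17 CPM in young lean (median 6.6) and from 7.95 to 23.7 CPM in aged obese libraries (median 15.9). All but 1 of the 6 aged obese libraries lay above the young lean range, and Itga7 rose by 1.28 ± 0.35 (adjusted p = 0.0213). High values also stood in young obese 1 and 2 (21.3 and 20.7 CPM, against at most 6.37 in the other young obese libraries) and in aged lean 16 (19.4 CPM). Ilk, the kinase-like scaffold of the complex with Lims1 and Parva, was counted at 0.198 to 0.874 CPM in young lean (median 0.674) and 0.572 to 1.97 CPM in aged obese libraries (median 1.04), and rose by 0.91 ± 0.25 (adjusted p = 0.0228). In the reference annotation 89.7% of the exon bases of Ilk are shared with Taf10 and Rrp8 on the opposite strand, and the strand setting of the counting is unknown, so the values of Ilk are uncertain. Without aged obese 10 or without aged obese 12, Itga7 and Ilk were not called. The count was 2 without aged obese 12 and 7 without the young lean library with the highest Vcl level (319 CPM).

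**Figure D4:**
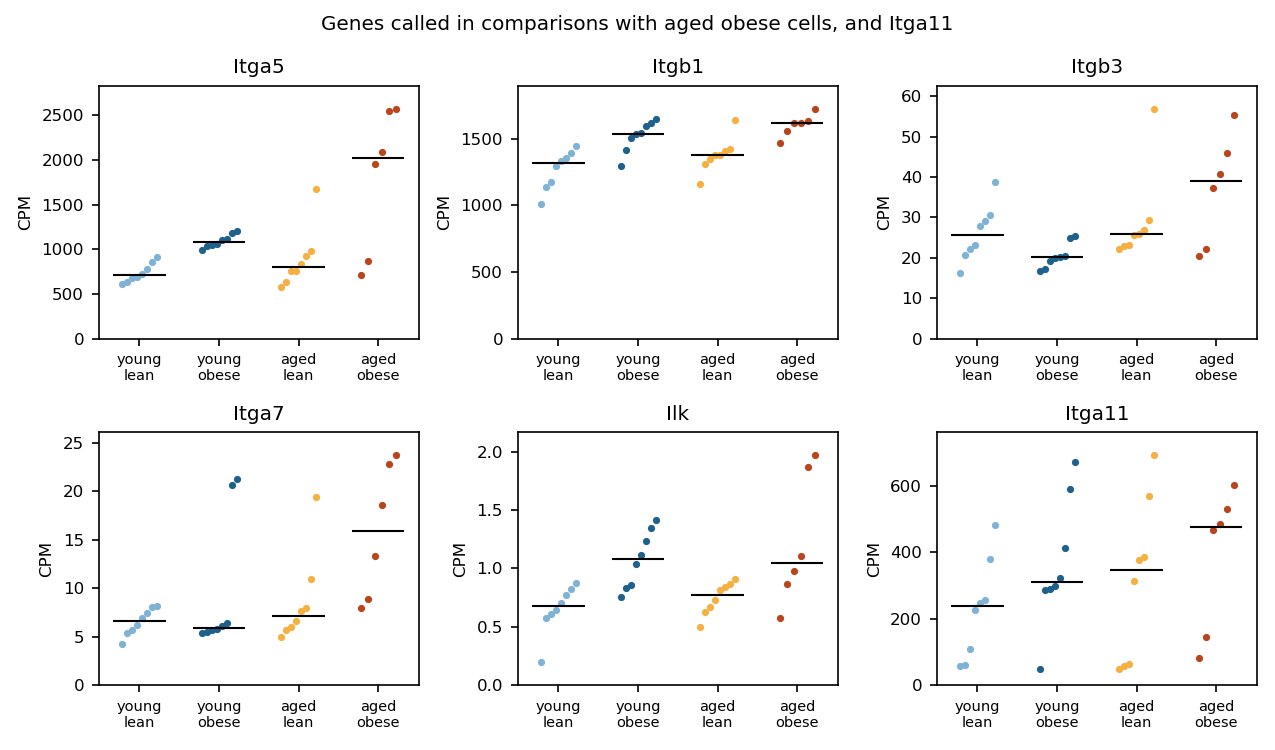
CPM by group of the 5 genes called in a comparison with aged obese cells, and of Itga11, with each point a library and the bar the group median. For Itga5 and Itgb3, 4 of 6 aged obese points lie above all young obese points and the other 2 lie lower, and Itga11 varies widely within every group.

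Whether the effect of obesity differed with age was tested directly with the interaction of both factors. No gene of the 29 was called in edgeR, DESeq2 called none and limma voom with quality weights called 1 (Itgb7). Over all tested genes 0.00693% were called, and 5 of the 29 had an unadjusted p under 0.05. Itgb7 had the smallest p: its difference between the obesity effects in aged and young mice was -1.79 ± 0.51 on the log2 scale (adjusted p = 0.364). The calls made in young and not in aged mice are therefore not shown to differ between ages. For Vcl, the obesity effect was 1.12 ± 0.30 in young and 0.59 ± 0.32 in aged mice, a difference of -0.53 ± 0.44 (adjusted p = 0.749). In aged mice, aged lean libraries ran from 134 to 330 CPM (median 227) and aged obese ones from 281 to 422 CPM (median 342).

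**Figure D5:**
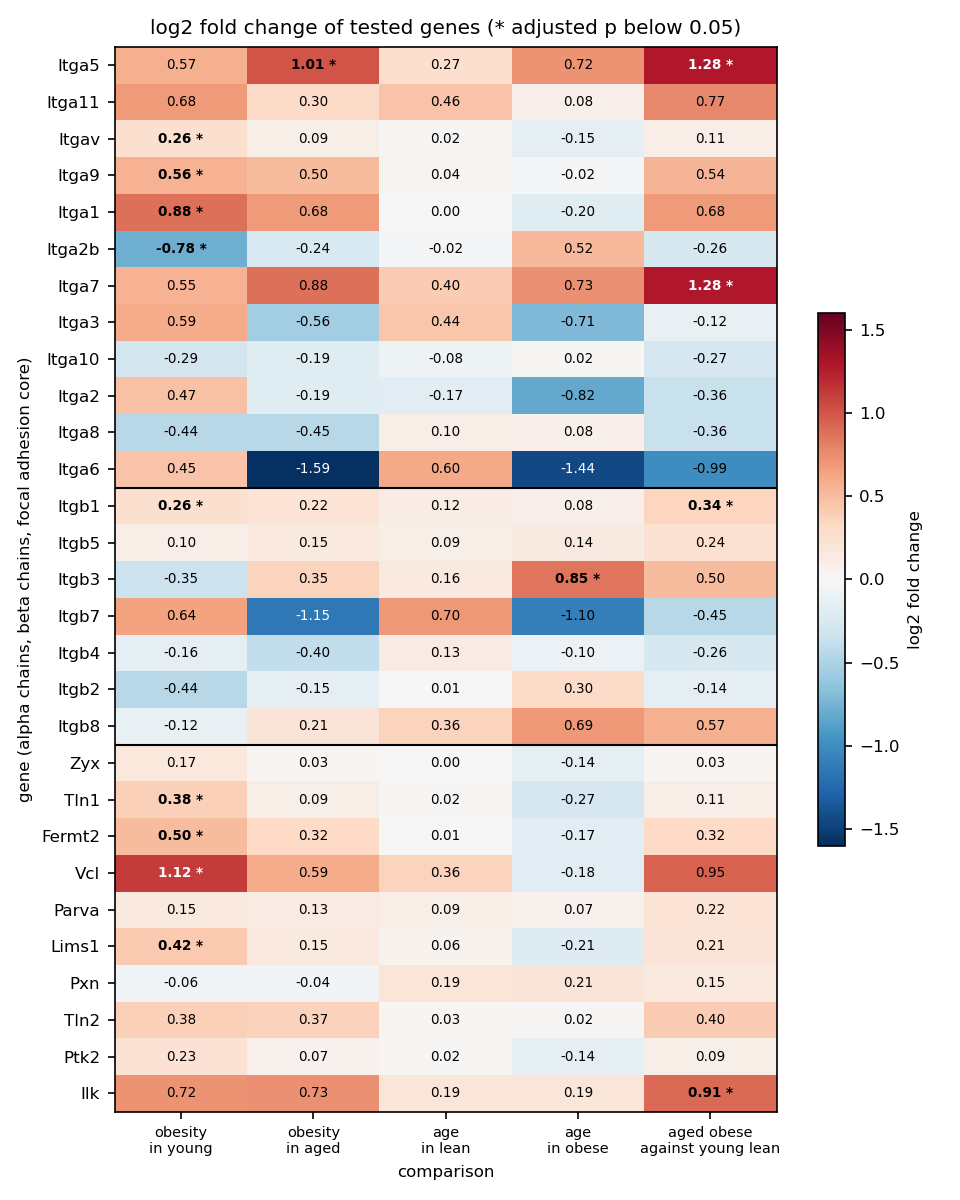
Log2 fold change of the 29 tested genes in the 5 comparisons between groups, with red for higher and blue for lower in the first-named condition, and bold values with an asterisk for an adjusted p under 0.05. The obesity comparison in young mice has 9 marked cells, that of aged obese against young lean 4, age in obese and obesity in aged 1 each, and age in lean none.

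The called genes, in the groups not given above, ran as follows. In aged lean and aged obese libraries, Fermt2 lay at 191 to 321 CPM (median 242) and 251 to 382 CPM (median 288). Tln1 lay at 395 to 602 CPM (median 513) and 390 to 666 CPM (median 542). Neither gene passed the test of obesity in aged mice. Lims1 lay at 105 to 130 CPM (median 121) in aged lean and 119 to 143 CPM (median 138) in aged obese libraries, and Itgav at 214 to 263 CPM (median 238) and 220 to 300 CPM (median 242). Itgb1 in aged lean libraries lay at 1159 to 1639 CPM (median 1378). Itga1 lay at 18.7 to 44.9 CPM (median 25.1) in aged lean and 23.7 to 66.5 CPM (median 46.8) in aged obese libraries, and Itga9 at 25.1 to 46.5 CPM (median 28.6) and 29.9 to 64.2 CPM (median 47.3). For both, aged obese 14, 15 and 17 were high, a set that differs from the 4 aged obese mice with high Itga5. Itga2b lay at 5.86 to 11.8 CPM (median 8.18) in aged lean and 5.63 to 8.08 CPM (median 7.2) in aged obese libraries. Itga7 lay at 5.36 to 21.3 CPM (median 5.92) in young obese and 4.99 to 19.4 CPM (median 7.13) in aged lean libraries and Ilk at 0.757 to 1.42 CPM (median 1.08) in young obese and 0.496 to 0.907 CPM (median 0.774) in aged lean libraries.

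A further 16 tested genes were called in no comparison. Among them the laminin receptor chain Itga6 was measured at 1.01 to 15.8 CPM, and its obesity comparison gave 0.45 in young and -1.59 ± 0.49 in aged mice (adjusted p = 0.152). Itga3, also a laminin receptor chain, ran from 1.61 to 13.4 CPM, and both extremes were young obese libraries, 2 and 22. The collagen receptor chains Itga2 and Itga10 stayed within 0.898 to 10.1 CPM and 0.982 to 6.5 CPM, and Itga8, which binds nephronectin, within 1.11 to 11.6 CPM. Of the exon bases of Itga10, 33.5% are shared with Gm42957 on the same strand in the reference annotation. Itgb4, the partner of Itga6 in hemidesmosomes, ran from 1.06 to 3.19 CPM and Itgb8, a partner of Itgav, from 0.193 to 1.74 CPM. In the core, Parva, the parvin that binds Ilk and actin, ran from 215 to 377 CPM, the second talin Tln2 from 58.7 to 167 CPM, Ptk2 from 48.2 to 87.7 CPM and the adaptor Pxn from 32.5 to 83.5 CPM. Among genes discussed above, Itga11, Itgb2, Itgb5, Itgb7 and Zyx also belong to the 16, and Itgb7 lay at 2.24 to 19 CPM (median 6.12) in young obese and 1.68 to 7.32 CPM (median 1.89) in aged obese libraries.

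Other genes of cell adhesion were read from a list of 85 that holds none of the 35, of which 83 were tested. Obesity in young mice raised 10 and lowered 2 of the 83 (14.5%), against 8.83% of all tested genes called, with a median log2 fold change of 0.13. Among those that rose were the actin crosslinkers Actn4 (0.55 ± 0.12, adjusted p = 0.0126), Actn1 (0.67 ± 0.15, adjusted p = 0.0138) and Flna (0.48 ± 0.11, adjusted p = 0.015). Actn4, Actn1 and Flna did not overlap between young lean and young obese cells. In aged obese against young lean cells 13 rose and 1 fell, 16.9% of the 83 against 10.3% of all tested genes. First by p were Pdlim5 (0.65 ± 0.14), Plaur, the urokinase receptor (1.39 ± 0.29), Flnc, a filamin (0.95 ± 0.20), each at adjusted p = 0.00668, and the kinase Ptk2b (0.91 ± 0.21, adjusted p = 0.0093). Age in obese mice raised Flnc alone (0.70 ± 0.20, adjusted p = 0.0467), 1.2% of the 83 against 3.07% of all tested genes. For obesity in aged mice, age in lean mice and the interaction, edgeR called 0 of the 83, with 17, 4 and 4 at an unadjusted p under 0.05.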

How the data were processed

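The authors deposited 1 table of raw read counts per Ensembl mouse gene, whole numbers without normalization. The submitters' processing notes name STAR, HTSeq 0.7.0 and DESeq2 1.12.4. Build, annotation release, STAR version and strandedness of counting are not given in the sources used here. The 5 lines that name no gene entered neither library sizes nor tests, and reads in no gene made up 3.94% to 8.75% of counted reads per library. Groups and mouse numbers come from the sample titles, and a sample overview says that a number is 1 mouse. For young lean 512, the name in the deposited counts adds further numbers after the mouse number. Lengths, GC content and overlaps were taken from GENCODE M21 (GRCm38), which may differ from the authors' annotation, and promoters from RefSeq (GRCm38.p6). Symbols were found for 36639 of 38561 genes.

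All 30 libraries were fitted together with edgeR 4.0.16 (R 4.3.3) in its quasi-likelihood test, with TMM scaling, filterByExpr, 1 term per group and Benjamini-Hochberg adjustment over 14438 genes. CPM are counts scaled to a common library size (TMM). Errors of log2 fold changes are standard errors, and p-values are two-sided. Every gene of the rule is named. Lowest, median and highest values are given for genes called, for the 6 highest per length and for the smallest p in a comparison without calls, and up to 4 called genes per comparison are named from the other adhesion list. The genes and lists were chosen with earlier results of these data known. The fit was tested on simulated data with independent libraries and 1 spread for all genes. Close libraries within a group, such as the sets among the young obese libraries, were not simulated, so that test does not give the error rate for these data. Alternatives were DESeq2 1.42.0, no filter on low counts, limma 3.58.1 (voom with sample quality weights), a replicate block, an offset for length and GC content (known for 99% of tested genes), total counts as library size, a fit of the compared groups alone, and leaving out libraries. Mouse numbers name individual mice and do not pair groups.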

Additional observations from a re-analysis of the deposited data

Results flagged for a closer look

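Within each group, the lowest and highest library were compared with their neighbours for 17 genes, those called or given in full, over 68 groups of libraries. A gap to the nearest library that exceeded Dixon's critical value was found 8 times. For independent, normally distributed values chance gives about 1 in 20 groups. The genes were measured in the same libraries, so the 68 groups are not independent and the 8 gaps cannot be set against that rate.

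Young lean 26 was the lowest of its group by such a gap in 4 genes: Vcl at 34 CPM (next 130), Tln1 at 354 CPM (next 448), Zyx at 594 CPM (next 715) and Ilk at 0.198 CPM (next 0.573). Young obese 22 was the lowest of its group in 3 genes: Itga11 at 48.7 CPM (next 286), Itga1 at 15.7 CPM (next 45.4) and Itgb5 at 255 CPM (next 328). Aged lean 16 was the highest of its group in Itgb3, at 56.9 CPM (next 29.4). The labels give no batch or date for these libraries, and the part of any technical difference was not tested.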

How the results depend on the processing

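Replicate block: 22 mouse numbers as a block term left 5 residual degrees of freedom, against 26 without it, and no gene of the set was called in any comparison (0 of 9, 0 of 4, 0 of 1 and 0 of 1). The numbers name individual mice, and the correlation of deviations between same-numbered libraries ran from -0.52 to 0.39, so a call lost here does not show a weaker effect. Under the block, the age effect in lean mice of Itgb7 changed sign (-0.39), and the cause was not tested. The 9 calls with obesity in young mice became 5 without a filter on low counts, 16 with voom, 4 with the length and GC offset and 2 without young obese 1 and 2, and 2 to 11 with 1 library left out. Over all tested genes the 1275 calls became 371, 4266, 472 and 143 in the first 4 of these, so the counts moved with those of all genes, and the median of the 29 genes, 0.38, became 0.23 with the block. The 1 call for age in obese mice became 5 with DESeq2, 7 with voom, 5 without young obese 1 and 2, 4 without aged obese 10 and 12, and 0 to 3 with 1 library left out. With the compared groups alone the count stayed at 1, but Itgb3 was lost and Itga2b was called. Calls over all genes went from 443 to 855, 2870, 643, 2679 and, with the compared groups alone, 181. The 1 call for obesity in aged mice became 2 with DESeq2 and 0 without a filter, with total counts, with the compared groups alone, without young obese 1 and 2 or without aged obese 10 and 12, and 0 to 2 with 1 library left out. With voom the count stayed at 1, but Itga5 was lost and Itga9 was called. Calls over all genes went from 32 to 187 with DESeq2 and 114 with voom. They were 18 without a filter, 58 with total counts and 0 with the compared groups alone. Without young obese 1 and 2 they were 49, and without aged obese 10 and 12 they were 9. The count of the set therefore did not always move with that of all genes here. The 4 calls in aged obese against young lean became 1 with voom (all genes 695, from 1483), 2 with the compared groups alone (all genes 410), and 2 to 7 with 1 library left out. Without aged obese 10 and 12 the count stayed at 4, but Itga7 and Ilk were lost and Itga1 and Itga9 were called. The interaction gained 1 with voom (Itgb7). Total counts as library size moved the median of all genes to -0.12 in aged obese against young lean cells, where Itgb1 then stood at 0.22 (adjusted p = 0.0516), and the share of higher among all called genes with obesity in young mice from 39.1% to 20.6%. The causes of these shifts were not tested.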
